A study of Mus musculus with 22 samples.

Results

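The prefrontal cortex of female mice that had been given binge-like doses of ethanol in adolescence was compared with that of females given water. The comparison covers 11 of the 22 RNA-seq libraries of the series, 6 ethanol pools (P1, P5, P11, P15, P19 and P21) and 5 water pools (P2, P6, P9, P12 and P16), chosen by the sex and treatment that their labels give. All mice were of the inbred strain DBA/2J and were dosed by gavage on 8 days between PND (postnatal day) 29 and 42, ethanol at 4 g/kg as a 25% w/v solution in water or water alone. Tissue was taken 24 h after the last dose, so no group was free of gavage and handling, and each library was made from the pooled tissue of 3 mice of one sex and treatment. The tissue was cortex cut from above the corpus callosum, so the white matter below it borders the dissected piece. As bulk tissue was measured, fewer cells of a type and less RNA per cell cannot be told apart.

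Ethanol reaches every cell of the brain, and adolescence is a time when oligodendrocytes, the cells that wrap axons in myelin, are still being made from precursors in the prefrontal cortex. Astrocytes and oligodendrocytes supply much of the brain's cholesterol, since cholesterol does not cross from blood into brain. Cells that must fold more protein, or that hold misfolded protein, raise the chaperones of the cytosol through heat shock factors and those of the endoplasmic reticulum through the unfolded protein response.

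Between 31605109 and 42425357 reads per female library fell on genes, with medians of 36031128 in water and 36588770.5 in ethanol pools. Of the 11 pools, 3 stood apart from the rest. P9 held RNA of striatal genes, with a summed level of the 10 striatal markers of 737 CPM (the reads of a gene scaled to the size of its library) against 209 to 265 CPM in the other 10 pools. P2 was rich in myelin RNA, with 6538 CPM summed over 14 myelin genes against 1947 to 3975 CPM elsewhere. The ethanol pool P19 stood apart on the first principal component of expression, at 32.7, with P2 on the other side at -34.8. The 8 pools other than P2, P9 and P19 lay between -7.45 and 11.9. The levels of the myelin and striatal lists in P19 were within the range of the other pools. P19 had the lowest summed level of all 11 pools for the lists of astrocyte, microglial, oligodendrocyte precursor, cholesterol synthesis and fatty acid synthesis genes. The main counts and the calls that turn on 1 of these pools are therefore given also without it. P19 was singled out after its values were seen. Genes that define cortical projection neurons were present in every pool at a summed 2056 to 2667 CPM.

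Of 18460 genes tested, 118 were higher and 211 lower in ethanol pools at an unadjusted p below 0.01, the threshold named by the study, which is 0.639% and 1.14% of the genes tested, or 1.78% together. None passed an adjusted p of 0.05 in edgeR's quasi-likelihood test, while 1378, or 7.46%, were under an unadjusted 0.05 (3.19% higher, 4.27% lower). At the adjusted threshold 11 genes were called by DESeq2 and 0 by limma-voom. In what follows "higher", "rose", "lower" and "fell" refer to the unadjusted threshold of 0.01. The changes were small, with a median absolute log2 fold change of 0.23 among genes that rose and 0.29 among genes that fell. The ethanol pools all lay below the water pools for 81 genes, 0.439% of those tested, and above for 62, or 0.336%.

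Without P9, 432 genes were called, or 2.31% of those tested (0.886% higher, 1.42% lower), and 233 of the 329 called in all pools were among them. Without P2, 328 were called, or 1.75% (0.732% higher, 1.02% lower), and 192 of the 329 were among them. The genes called with the same sign in all 3 fits numbered 145, of which 49 rose (0.265%) and 96 fell (0.52%), 0.785% of those tested together, and these are referred to as kept. Of the kept genes, 123, or 0.666% of those tested, were also called without both pools. Of the 329, 7 had a p above 0.05 without P9 and 1 without P2, and 1 changed sign without P9. Without both pools, 168 of the 329 were called and 45 had a p above 0.05. Without P19, 224 genes were called, or 1.22% (0.371% higher, 0.851% lower), among them 185 of the 329 and 118 of the 145 kept genes.

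**Figure D1:**
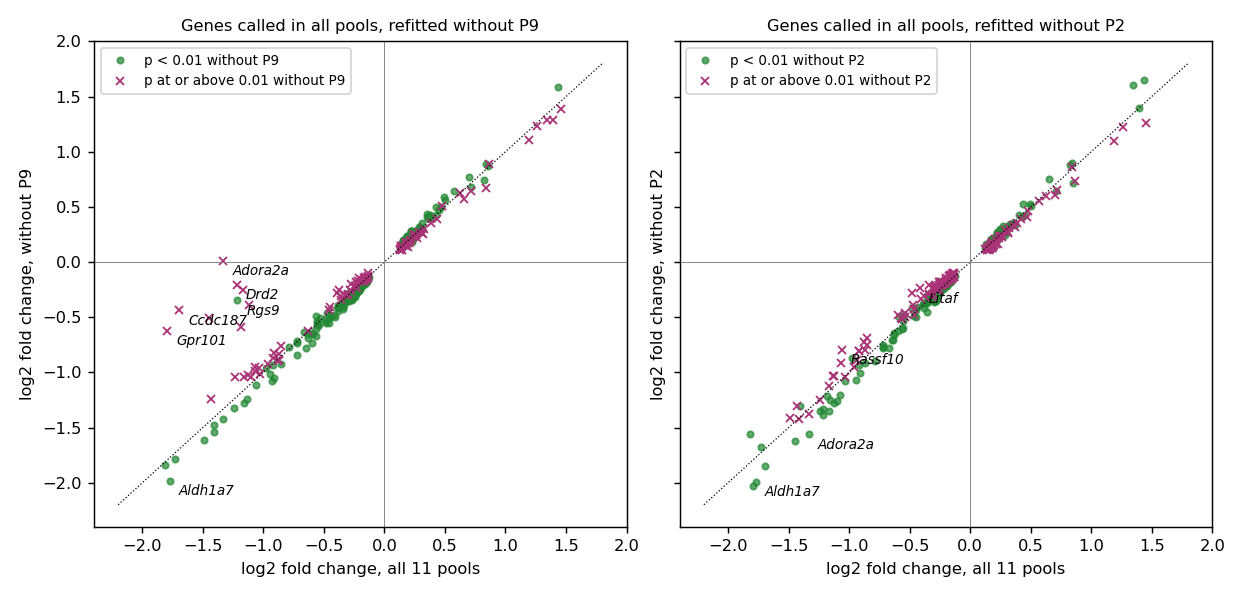
Log2 fold change of ethanol over water for the 329 genes called in all 11 female pools (x axis) against the same value refitted without P9 (left, y axis) or without P2 (right, y axis), 1 point per gene, with circles for genes at p below 0.01 in the refit and crosses for the others. Most genes lie near the dotted line of equality, while Adora2a, Drd2, Ccdc187 and Gpr101 move towards 0 without P9.

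Chaperones formed the list with the most calls in the higher direction. Of 17 genes of heat shock and of the unfolded protein response, 5 rose, against 0.639% of all genes tested, and 0 fell. A fold change above 0 was found for 16 of them, against 9160 of 18460 genes tested. Some neuronal lists leaned the same way, with 21 of 24 potassium channel and 15 of 17 GABA and glycine receptor genes above 0. The 5 genes of red blood cells were all above 0, with a higher median of 0.30 on the log2 scale, and 0 were called. That median was 0.13 without P9 and 0.40 without P2. The median log2 fold change of the chaperone list was 0.16, against -0.0011 over all genes tested. It was 0.19 without P9, 0.11 without P2 and 0.14 without both pools. The 5 genes were Hsph1, Dnajb1, Hspa5, Calr and Sdf2l1, and only Hsph1 was kept in all 3 fits. Without P9, 9 of the 17 rose, without P2, 1 did, without both, 5 did, and without P19, 2 did, Dnajb1, Hspa5 and Sdf2l1 having lost the call. Over all genes tested, 0.886% rose without P9, 0.732% without P2 and 0.371% without P19, and 132 of 18460 genes rose without both.

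Hsph1, which encodes a nucleotide exchange factor of the cytosolic HSP70 chaperones, stood at 147, 147, 168, 155 and 161 CPM in the water pools P2, P6, P9, P12 and P16. In the ethanol pools it ranged from 168 to 180 CPM with a median of 175 CPM. The lowest ethanol pool and the highest water pool, P9, were close to each other, and without P9 the groups did not overlap. The log2 fold change of Hsph1 was 0.16 ± 0.05 (SE, adjusted p = 0.47), 0.20 without P9 and 0.14 without P2.

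Dnajb1, an HSP40 co-chaperone that is induced by heat shock factor, was at 21.8, 26.5, 30.1, 24.1 and 28.5 CPM in the same water pools and at 28.5 to 32.1 CPM in ethanol pools (median 30.7 CPM). The log2 fold change of Dnajb1 was 0.23 ± 0.07 (SE, adjusted p = 0.53), 0.28 without P9 and 0.17 without P2, where the call was lost. P2 had the lowest level of Dnajb1 among all 11 pools, and the same pool was lowest for Hspa5, Calr and Sdf2l1.

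Hspa5 encodes BiP, the HSP70 chaperone of the endoplasmic reticulum that also holds the sensors of the unfolded protein response inactive. It was at 176, 200, 241, 200 and 224 CPM in water pools and at 202 to 277 CPM in ethanol pools, with a median of 246 CPM there. The groups overlapped, since P9 was above 2 ethanol pools, P1 and P11. The log2 fold change of Hspa5 was 0.22 ± 0.08 (SE, adjusted p = 0.56), 0.28 without P9 and 0.16 without P2, where the call was lost.

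Calr, the lectin chaperone calreticulin that binds calcium in the same compartment, was at 272, 300, 320, 323 and 332 CPM in water pools and at 310 to 394 CPM in ethanol pools (median 345 CPM). It had a log2 fold change of 0.19 ± 0.06 (SE, adjusted p = 0.53), which was 0.15 and no longer called without P2. Sdf2l1, a partner of BiP in the folding of new proteins, was at 7.34 to 9.67 CPM in water and at 8.47 to 12.1 CPM in ethanol pools, with a log2 fold change of 0.31 ± 0.11 (SE, adjusted p = 0.53) that was 0.26 and no longer called without P2. Pdia4, a disulfide isomerase, and Hsp90b1, the HSP90 of the endoplasmic reticulum, did not pass the threshold in all pools, at log2 fold changes of 0.22 ± 0.08 and 0.13 ± 0.05 (SE), and Pdia4 rose without P9, at 0.27. Xbp1 and Ddit3, transcription factors of the response itself, were at 0.07 and 0.05 on the same scale and were not called.

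**Figure D2:**
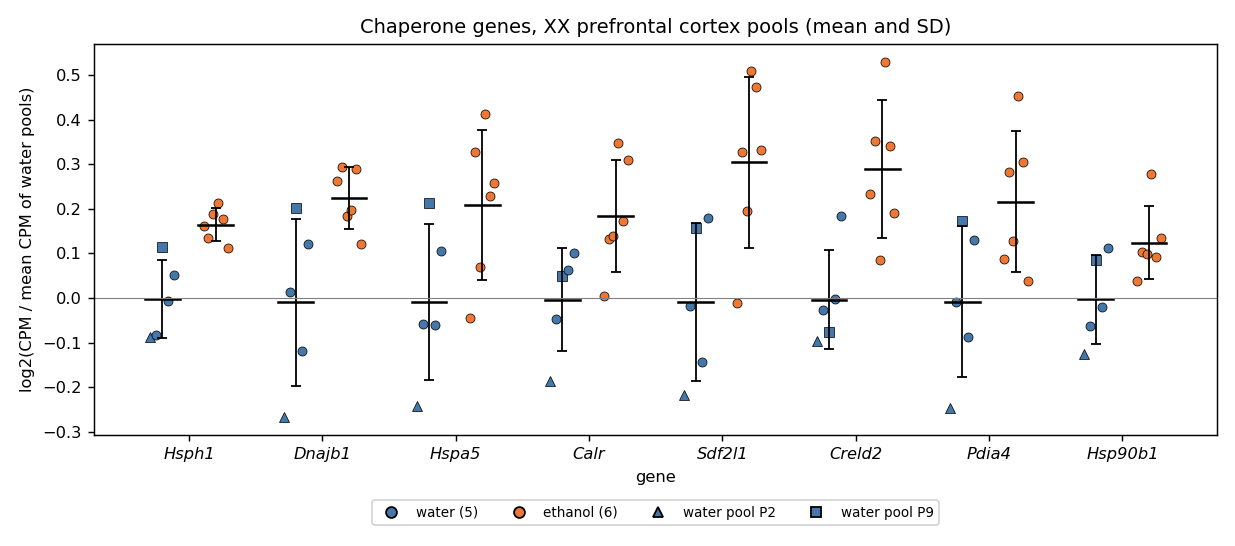
Level of 8 chaperone genes in each female pool as log2 of CPM over the mean CPM of the water pools (y axis), with water pools in blue, ethanol pools in orange, a triangle for P2, a square for P9, and bars for the mean and SD. P2 is the lowest pool for all 8 genes shown.

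The promoters of several of these genes hold the endoplasmic reticulum stress response element, CCAAT and CCACG with 9 bases of any kind between them, which is read by ATF6 and NF-Y in known target genes. It was searched on both strands from 250 bases before to 50 bases after each start site in RefSeq sequence of GRCm38.p6, where 0.119% of 32851 windows hold it. Of 85 genes that rose and have such a window, 4 hold it, Hspa5, Calr, Creld2 and Spats2l, against 0 of 136 genes that fell and 19 of 12609 genes tested. The 250 bases before the start site are printed for Hspa5, Calr and Creld2, which rose, and for Hsp90b1, which holds the element at 2 places and missed the threshold. The element is in capitals, and it lies on the opposite strand in Calr, in Creld2 and at the second place in Hsp90b1.
Hspa5, chr2:34771840-34772089, plus strand: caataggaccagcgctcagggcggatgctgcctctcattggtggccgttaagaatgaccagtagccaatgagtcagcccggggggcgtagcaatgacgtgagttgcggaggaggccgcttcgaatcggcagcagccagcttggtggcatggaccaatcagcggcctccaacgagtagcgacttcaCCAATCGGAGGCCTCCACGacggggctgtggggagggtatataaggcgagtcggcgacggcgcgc
Calr, chr8:84846932-84847181, minus strand: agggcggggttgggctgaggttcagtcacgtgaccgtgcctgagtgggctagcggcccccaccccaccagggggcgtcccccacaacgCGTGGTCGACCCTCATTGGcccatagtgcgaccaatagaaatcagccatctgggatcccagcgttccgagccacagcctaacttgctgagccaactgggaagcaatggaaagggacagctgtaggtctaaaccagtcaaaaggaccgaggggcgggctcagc
Creld2, chr15:88819396-88819645, plus strand: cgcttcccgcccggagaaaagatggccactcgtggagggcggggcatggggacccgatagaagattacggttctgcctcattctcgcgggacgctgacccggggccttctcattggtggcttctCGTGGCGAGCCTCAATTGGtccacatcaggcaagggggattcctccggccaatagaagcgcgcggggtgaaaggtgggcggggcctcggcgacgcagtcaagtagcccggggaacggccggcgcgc
Hsp90b1, chr10:86705445-86705694, minus strand: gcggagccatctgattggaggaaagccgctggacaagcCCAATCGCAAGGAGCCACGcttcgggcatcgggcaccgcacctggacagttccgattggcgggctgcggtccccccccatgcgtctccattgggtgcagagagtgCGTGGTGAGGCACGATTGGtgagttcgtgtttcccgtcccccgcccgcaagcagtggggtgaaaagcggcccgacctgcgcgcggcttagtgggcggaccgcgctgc

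The windows of 13 of the 17 chaperone genes were in the table, and 3 hold the element, Hspa5, Calr and Hsp90b1. The heat shock element, searched as GAA, TTC and GAA with 2 bases of any kind between each, is held by 0.603% of all windows, by 73 of 12609 genes tested and 1 of 136 genes that fell, and, among the 85 genes that rose, by 3, which are Hsph1, Hspe1 and A330023F24Rik. A match describes these letters only. Binding of a factor was not measured, and the counts were not tested. The elements were searched because of the chaperone list, so their presence in genes of that list is no separate result. Creld2, Spats2l and Hspe1 are outside the lists and were picked after their values were seen.

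A few genes of glia fell in ethanol pools. Fabp7, a fatty acid binding protein of radial glia, astrocytes and oligodendrocyte precursors, had the smallest p of all genes. It was at 48.7, 37.4, 39.6, 38.7 and 42.5 CPM in the water pools P2, P6, P9, P12 and P16 and ranged from 29.1 to 36.6 CPM in the ethanol pools, with a median of 31.2 CPM. No ethanol pool reached the lowest water pool, and the log2 fold change was -0.36 ± 0.07 (SE, adjusted p = 0.45). It was -0.37 without P9 and -0.30 without P2.

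Aqp4, the water channel of astrocyte endfeet, was at 165, 149, 155, 165 and 161 CPM in water pools and at 128 to 148 CPM in ethanol pools, with a median of 142 CPM. The groups did not overlap, and the log2 fold change was -0.19 ± 0.05 (SE, adjusted p = 0.47). Aqp4 was the 1 gene of 10 astrocyte markers that fell, where 1.14% of all genes tested fell. The list had 9 of 10 genes below 0 and a median log2 fold change of -0.08. The median was -0.10 without P9, -0.06 without P2 and -0.05 without P19. The summed level of the list was 8626 to 9838 CPM in water and 8149 to 9513 CPM in ethanol pools.

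Olig1, a transcription factor of the oligodendrocyte lineage, was at 149, 141, 112, 125 and 115 CPM in water pools and at 98.1 to 120 CPM in ethanol pools (median 109 CPM). The groups overlapped, and the log2 fold change was -0.24 ± 0.07 (SE, adjusted p = 0.47), -0.28 without P9 and -0.18 without P2, a kept call. Pdgfra, the growth factor receptor that marks the precursors, fell by 0.16 on the log2 scale and was not called without P2 or without P9. These were 2 of 10 precursor genes, where 1.14% of all genes tested fell. The median of the precursor list was -0.09, with -0.14 without P9, -0.0028 without P2 and -0.08 without P19.

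The genes of mature myelin did not pass the threshold. All 14 had a fold change below 0, with a median log2 fold change of -0.25, and 0 were called. Without P9 the median was -0.28 and 1 gene was called lower. Without P2 the median of the 14 genes was 0.06, so the sign of the list rested on 1 pool. Fabp7, Aqp4 and Olig1 were called without P2, as kept genes are by definition. Pdgfra was not called there, and the median of the precursor list was -0.0028. Without both P9 and P2 the median of the myelin list was 0.10, 13 of the 14 genes were above 0 and 0 were called.

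**Figure D3:**
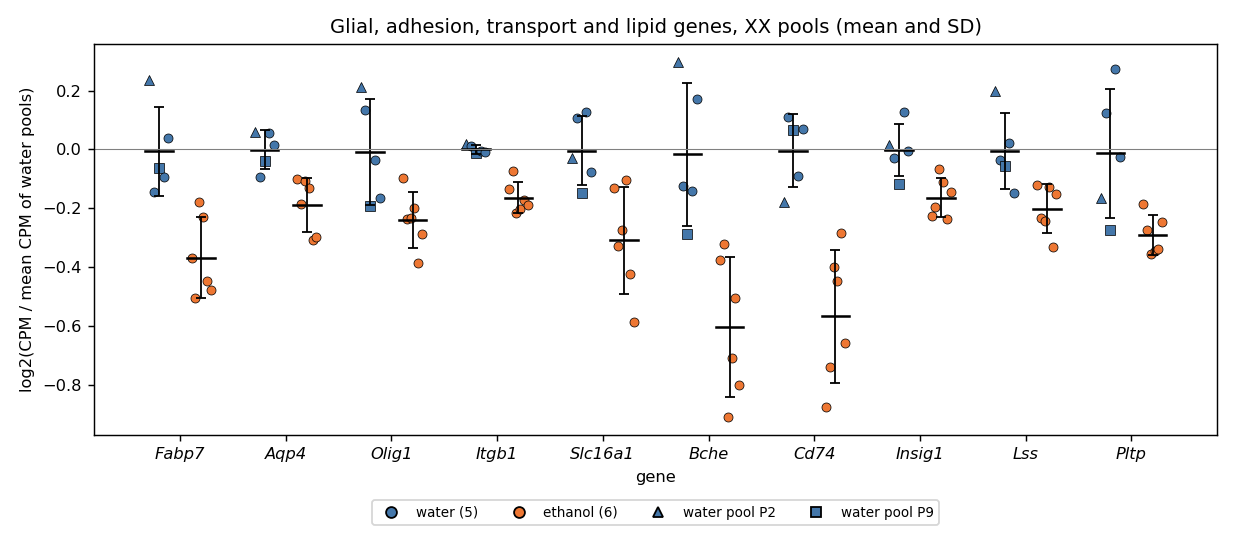
Level of 10 genes that fell, in each female pool, as log2 of CPM over the mean CPM of the water pools (y axis), with water pools in blue, ethanol pools in orange, a triangle for P2, a square for P9, and bars for the mean and SD. The groups do not overlap for Fabp7, Aqp4, Itgb1, Bche and Cd74.

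Itgb1, the beta 1 integrin through which most cells bind extracellular matrix, showed little spread between water pools, at 104, 103, 102, 102 and 102 CPM. It ranged from 88.2 to 97.4 CPM in ethanol pools, with a median of 90.5 CPM, and the highest ethanol pool did not reach the lowest water pool. The log2 fold change was -0.16 ± 0.04 (SE, adjusted p = 0.47), or -0.17 without P9 and -0.16 without P2. Itgb1, Adamts6 and Eln were the 3 genes that fell of 30 genes of extracellular matrix and perineuronal nets, against 1.14% of all genes tested. In the refits 2 fell without P9 (1.42% of all genes tested), 4 without P2 (1.02%) and 5 without both (242 of 18460 genes). Of the 30, 25 had a fold change below 0, with a median log2 fold change of -0.11, which was -0.14 without P9 and -0.10 without P2. Adamts6, a matrix protease, fell by 0.39 and Eln, which encodes elastin, by 0.30 on the log2 scale, and without P9 neither was called, at -0.28 and -0.29. Adamts6 had its highest level in P9, at 12.5 CPM.

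Of 14 genes of vessels and meninges, 0 were called in all pools, 3 had a p below 0.05 and 10 had a fold change below 0. Cldn5, the tight junction protein of brain endothelium, was at 83, 92.4, 59.1, 108 and 74.1 CPM in water pools, with P9 lowest of all 11 pools, and at 60.1 to 80.6 CPM in ethanol pools. With P9 its log2 fold change was -0.26 ± 0.10 (SE, adjusted p = 0.61), and without P9 it was -0.36 and passed the threshold. Kdr, a VEGF receptor of the same cells, was at -0.26 ± 0.09 (SE, adjusted p = 0.56) with P9 and at -0.33 without it, and it too was called without P9 and not with it. The summed level of the list was 362 to 518 CPM in water pools and 356 to 427 CPM in ethanol pools. P12 was the highest of all 11 pools. The median log2 fold change of the list was -0.12, with -0.14 without P9 and -0.16 without P2. Without both pools, which leaves P6, P12 and P16 as water pools, the median was -0.20, 13 genes were below 0 and 5 fell. Of the 18460 genes tested in all pools, 242 fell in that fit. Of the list, 2 genes fell without P9, 0 without P2 and 1 without P19, against 1.42%, 1.02% and 0.851% of all genes tested.

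Slc16a1, the monocarboxylate transporter MCT1 of endothelium and oligodendrocytes, was at 54.2, 59.4, 49.8, 60.4 and 52.4 CPM in water and at 36.8 to 51.4 CPM in ethanol pools. The groups overlapped by P9 and 2 ethanol pools, and the log2 fold change was -0.30 ± 0.07 (SE, adjusted p = 0.47), a kept call. Bche, which encodes butyrylcholinesterase, an enzyme of glia and plasma that splits choline esters, was at 9.19, 6.86, 6.13, 6.77 and 8.42 CPM in water pools and at 3.98 to 5.98 CPM in ethanol pools. Its groups did not overlap, and the log2 fold change was -0.59 ± 0.13 (SE, adjusted p = 0.45), with -0.65 without P9 and -0.50 without P2.

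Calls among genes of sterol and lipid handling were few. Of 20 genes of cholesterol synthesis, 2 fell and 5 were lower at a p below 0.05, against 1.14% and 4.27% of all genes tested. None of the 20 rose, and 16 had a fold change below 0. Their median log2 fold change was -0.07, with -0.06 without P9, -0.09 without P2 and -0.04 without P19. Insig1, the sterol sensor that holds the SREBP activator in the endoplasmic reticulum, was at 86.6, 84, 79.1, 93.7 and 85.3 CPM in water pools and at 72.7 to 81.9 CPM in ethanol pools. It fell by 0.16 on the log2 scale (SE 0.05, adjusted p = 0.53) and was kept, but lost the call in 3 of the fits with 1 pool left out. Among these were the fits without P19, at -0.15, and without P12, its highest pool, at -0.13. Lss, the lanosterol synthase that closes the sterol ring, fell by 0.20, and by 0.15 without P2, the pool in which it was highest at 68.1 CPM and without which it was not called.

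Pltp, which carries phospholipid between lipoproteins, was at 71.3 to 104 CPM in water and 67.3 to 75.8 CPM in ethanol pools. The fit gave Pltp a log2 fold change of -0.29 ± 0.07 (SE, adjusted p = 0.47), with -0.35 without P9 and -0.42 without both pools. Leaving out P12 shrank it to -0.21, the weakest value with 1 pool left out, and Pltp was still called there. In the other direction Tm6sf2, a gene of lipoprotein secretion, rose by a log2 fold change of 0.83 ± 0.21 (SE) at a low level, from 1.53 to 2.34 CPM in water to 2.1 to 5.22 CPM in ethanol pools. Both calls were kept. None of 10 genes of fatty acid synthesis was called in all pools, and 1 was lower without P9.

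Cd74, the invariant chain that loads antigen onto MHC class II in microglia and border macrophages, was at 4.76, 5.81, 5.63, 5.05 and 5.65 CPM in water pools and at 2.93 to 4.42 CPM in ethanol pools (median 3.68 CPM). No ethanol pool reached the water pools, and the log2 fold change was -0.55 ± 0.13 (SE, adjusted p = 0.47), a kept call. Of 10 microglial markers 0 were called and 9 were below 0. Their median log2 fold change was -0.08, with -0.12 without P9, -0.05 without P2 and -0.05 without P19. Their summed level was 605 to 771 CPM in water and 555 to 698 CPM in ethanol pools. C4b, complement component 4, was the 1 gene that fell of 18 genes of complement and interferon, where 1.14% of all genes tested fell. It was at 23, 23, 18.1, 23.7 and 23.8 CPM in water pools, P9 being the low one, and at 16.4 to 21.5 CPM in ethanol pools, with a log2 fold change of -0.27 ± 0.08 (SE, adjusted p = 0.53) that was -0.33 without P9. The median of the complement list was -0.12, with 15 of 18 genes below 0, and was -0.13 without P9 and -0.10 without P2.

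Several other genes that fell were kept. Atp11b, a phospholipid flippase, was at 318 to 365 CPM in water and 269 to 319 CPM in ethanol pools, with a log2 fold change of -0.23 ± 0.05 (SE, adjusted p = 0.45), and 5 of 6 ethanol pools were below all water pools. Tnpo1, which carries proteins into the nucleus, fell by 0.18, and Car8, a carbonic anhydrase relative that lacks the enzyme activity, by 0.25 on the log2 scale. Zic1, a zinc finger factor of the developing forebrain, fell by 0.27, and Chadl, a matrix protein of the chondroadherin type, by 0.25. For Tnpo1, Car8 and Chadl the groups did not overlap.

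Among kept genes that rose, the zinc finger gene Zfp93 had the smallest p. It was at 5.63, 5.09, 6.43, 5.58 and 5.02 CPM in water pools and at 6.89 to 8.95 CPM in ethanol pools, with no overlap and a log2 fold change of 0.50 ± 0.11 (SE, adjusted p = 0.45). Mettl7a1, a membrane methyltransferase of lipid droplets and endoplasmic reticulum, was at 17.6 to 21.8 CPM in water and 23.2 to 26.3 CPM in ethanol pools, with a log2 fold change of 0.29 ± 0.07 (SE, adjusted p = 0.45). Its reads may be shared in part with near-identical relatives. Ypel4 rose by 0.25 and Dnase1l2 by 0.50 on the log2 scale, both without overlap between the groups.

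The X-linked genes Tceal3 and Tceal6, of a family related to the elongation factor TFIIS, rose by 0.30 and 0.28 on the log2 scale, and as members of this family resemble each other their counts may not be fully separate. Fkbp2, a prolyl isomerase of the endoplasmic reticulum, was at 66.5 to 69.8 CPM in water and 73.2 to 83.6 CPM in ethanol pools, with a log2 fold change of 0.18 ± 0.05 (SE, adjusted p = 0.47). Ndufa8, a subunit of respiratory complex I, was at 46.1 to 48.4 CPM in water and 50.5 to 56.3 CPM in ethanol pools, a log2 fold change of 0.18 ± 0.05 (SE). For Fkbp2 and Ndufa8 the groups did not overlap. None of 22 respiratory chain genes of the list, which does not hold Ndufa8, was called.

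Also kept were Taf15, an RNA-binding protein, with a log2 fold change of 0.22, Tnfrsf25, a death receptor, with 0.43, and Fam131c, with 0.85 at 0.815 to 2.03 CPM in water and 1.84 to 3.05 CPM in ethanol pools.

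Lists of neuronal genes held few calls, where 0.639% of all genes tested rose and 1.14% fell. None of 23 glutamate receptor genes, 17 GABA and glycine receptor genes, 25 synaptic adhesion genes, 27 opioid, cannabinoid and monoamine genes, 13 projection neuron genes and 15 interneuron genes was called in all pools. The medians of these lists lay between -0.0011 and 0.06 on the log2 scale, between 0.06 and 0.10 without P9, where 1 glutamate receptor gene was lower, and between -0.06 and 0.01 without P2. Of 24 potassium channel genes, Kcnj9, a subunit of the channels opened by G proteins, rose by 0.19 on the log2 scale, but was not called without P9 (0.17) or without P2 (0.14). Fold changes above 0 were held by 21 of 24 potassium channel, 15 of 17 GABA and glycine receptor and 19 of 25 synaptic adhesion genes. Without both pools these counts were 20, 10 and 14. P2 was the lowest of the 11 pools for each of these lists. Of 25 cytosolic ribosomal protein genes, Rps23, whose processed copies in the genome can take some of its reads, rose by 0.14, and by 0.11 without P9, which was not called. None of 26 genes of histone H3K9 and H3K36 methylation was called, and in all pools none of 15 glucocorticoid response genes, 1 of which was higher without P9, 5 genes of red blood cells and 7 genes of choroid plexus and ependyma.

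Of 15 clock genes, 1 rose in all pools, 3 without P9 and 0 without P2, against 0.639%, 0.886% and 0.732% of all genes tested. The 1 gene was Per1, which also answers to stress hormones and neuronal activity. It was at 69.9, 79.9, 76.7, 70.2 and 67 CPM in water pools and at 91, 74.4, 79.1, 80.2, 79.9 and 116 CPM in the ethanol pools P1, P5, P11, P15, P19 and P21, with a log2 fold change of 0.25 ± 0.09 (SE, adjusted p = 0.53), and without P2 it was 0.24 and just missed the threshold. P1 and P21 stood above the rest. The same pools were highest for the activity-induced gene Arc, at 180 and 140 CPM against 59.5 to 98 CPM in all others, and Arc had a log2 fold change of 0.53 ± 0.20 (SE, adjusted p = 0.57), which was not called in all pools and was called without P19, at 0.65. None of 15 immediate early genes was called in all pools.

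The values of striatal genes turned on P9. With P9 all 10 had a fold change below 0 and 3 fell, against 1.14% of all genes tested. The median log2 fold change was -0.59, with 0.02 without P9 and -0.70 without P2. Without P9, 1 fell, and without P2, 5 did. Adora2a, the adenosine receptor of striatal projection neurons, was at 37 CPM in P9 and at 3.27 to 5.33 CPM in the other water pools, against 2.88 to 5.67 CPM in ethanol pools. The log2 fold change of Adora2a was -1.33 ± 0.46 (SE, adjusted p = 0.53) with P9 and 0.01 without it. Drd2, the D2 dopamine receptor, was at 14.2 CPM in P9 and 1.86 to 2.71 CPM in the other water pools, and its log2 fold change was -1.22 ± 0.39 (SE, adjusted p = 0.53) with P9 and -0.21 without it.

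Rgs9, a regulator of G protein signalling that is abundant in striatum, was at 56.9 CPM in P9, at 13.6, 10.8, 9.64 and 10.5 CPM in P2, P6, P12 and P16, and at 7.85 to 9.66 CPM in ethanol pools. Rgs9 had a log2 fold change of -1.21 ± 0.33 (SE, adjusted p = 0.47) with P9 and -0.35 without P9, both called, and of -0.24 without both pools, which was not. Ccdc187 and Gpr101 were highest in P9 too, at 17.2 and 3.5 CPM, and their log2 fold changes of -1.69 and -1.79 were -0.44 and -0.62 without P9, neither called. Litaf, a gene of endosomes, was highest in P2 at 16.8 CPM, and its log2 fold change of -0.42 ± 0.14 (SE, adjusted p = 0.53) was -0.24 without P2, where it was not called.

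**Figure D4:**
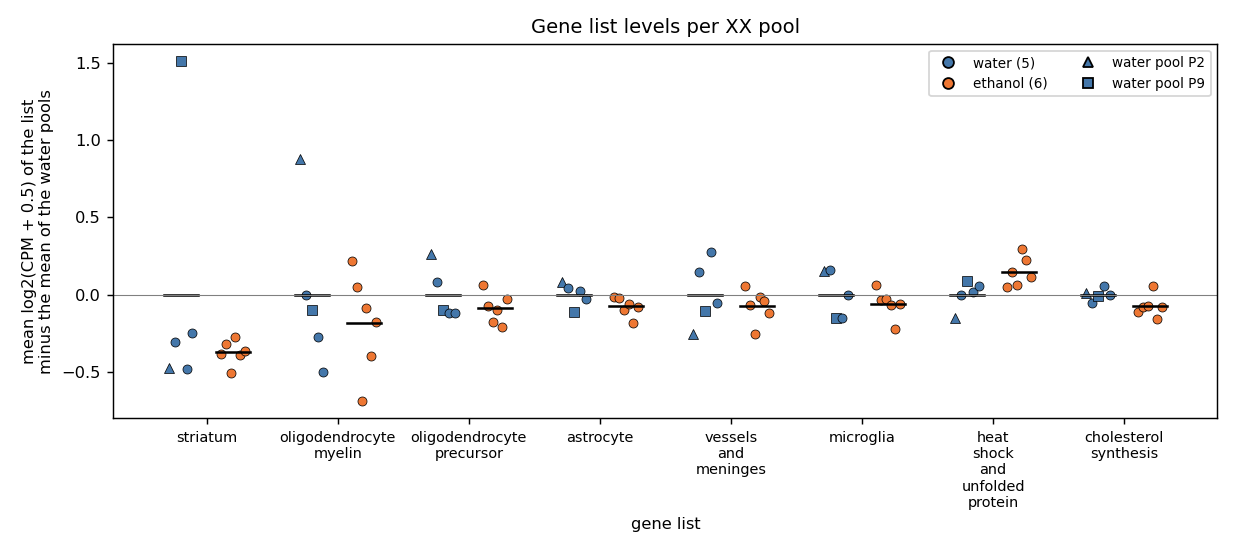
Mean log2(CPM + 0.5) of 8 gene lists in each female pool, minus the mean of the water pools (y axis), with water pools in blue, ethanol pools in orange, a triangle for P2, a square for P9, and a bar for the group mean. P9 stands above all other pools for striatal genes and P2 for myelin genes, while for the chaperone list the ethanol mean is above and P2 is the lowest pool.

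The 6 ethanol and 5 water pools of males, which share no pool with the females, were fitted separately, and 311 of 18347 genes, 1.70%, were called there. Of the 329 female genes, 326 were tested in males, and 38 of them, or 11.7%, were called in the same direction, which is 12.2% of the male calls. These included Fabp7, with a log2 fold change of -0.41 ± 0.08 (SE) in males, Atp11b (-0.23), Mettl7a1 (0.23), Aqp4 (-0.16), Insig1 (-0.18), Lss (-0.16) and Adamts6 (-0.31). Hspa5, Sdf2l1 and Calr rose in males by 0.19, 0.46 and 0.11 on the log2 scale, and Per1 by 0.24. Kept female genes that were not called in males included Cd74 at -0.10 ± 0.16, Olig1 at -0.04 ± 0.05, Slc16a1 at -0.10 ± 0.06 and Zfp93 at 0.18 ± 0.13 (SE).

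The difference between the female and male effects was tested in a fit of all 22 pools. Of 19411 genes, 115 had an interaction p below 0.01, which is 0.592%, and 0 passed the adjusted threshold in edgeR, DESeq2 or limma-voom. For Olig1 the female effect minus the male effect was -0.19 ± 0.09, for Cd74 -0.46 ± 0.22, for Slc16a1 -0.20 ± 0.10 and for Fabp7 0.05 ± 0.13 (SE) on the log2 scale, and none of them was called. The 3 genes with the smallest interaction p were Aldh1a7, Rassf10 and Agt. Aldh1a7, a retinal dehydrogenase relative with a near-identical paralog, was at 16.6 CPM in the water pool P12 and at 0.897 to 1.84 CPM in the other 10 female pools, and its log2 fold change of -1.77 ± 0.56 (SE, adjusted p = 0.53) was 0.0006 without P12, although it was among the kept genes. In males it was higher in ethanol pools, at 2.78 ± 0.70 (SE), and was called.

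Rassf10 was at 1.06 to 2.39 CPM in water and 0.483 to 0.844 CPM in ethanol pools of females, without overlap, with a log2 fold change of -1.06 ± 0.28 (SE, adjusted p = 0.47) that was -0.80 and no longer called without P2. In males it was 0.59 ± 0.31 (SE). Agt, the angiotensinogen made by astrocytes, was at 3.78 to 5.48 CPM in water and at 2.58 to 3.39 CPM in 5 of 6 ethanol pools of females, the other being P19 at 5.64 CPM. Agt had a log2 fold change of -0.40 ± 0.17 (SE) in females, which was not called in all pools but was without P19, at -0.58, and of 0.69 ± 0.20 (SE) in males, and the difference was -1.10 ± 0.29 (SE, adjusted p = 1).

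**Figure D5:**
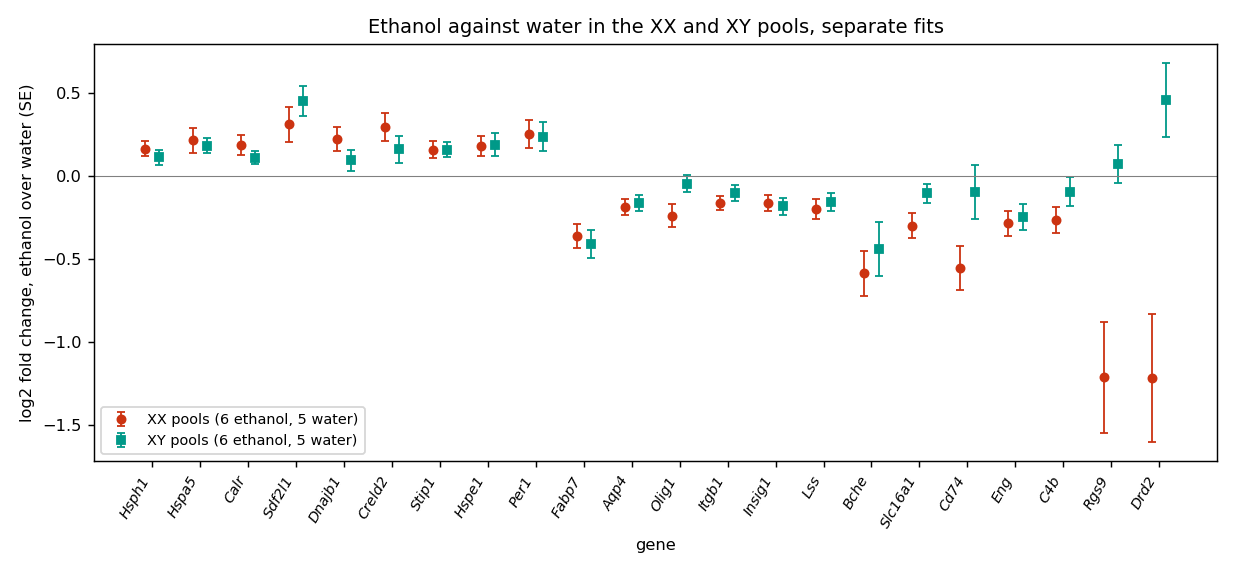
Log2 fold change of ethanol over water with its SE (y axis) for 22 genes in the female (XX, circles) and male (XY, squares) pools, fitted separately. Chaperone genes lie above 0 and Fabp7, Aqp4, Insig1 and Lss below 0 in both sexes, while Rgs9 and Drd2, which are high in the female water pool P9, differ most.

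The use of exons was tested on reads per exon bin, a stretch of exon that is shared by the same transcripts, against the other bins of the same gene. Of 13102 genes, 0 passed an adjusted Simes p of 0.05, while 48 had a Simes p below 0.01, or 0.366%, and 263 below 0.05, or 2.01%. Without P9, 1 gene passed the adjusted threshold, or 0.00768%, and without P2, 0 did. An F-test over the bins of a gene called 101 genes at the adjusted threshold, and limma's diffSplice called 4.

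The 4 genes with the smallest Simes p were Sfpq, Atp5g1, Evl and Kcnk9, and the groups did not overlap in the leading bin of Sfpq, Atp5g1 and Kcnk9. In Sfpq, a splicing factor whose counts are joined with those of the overlapping Gm12940, the bin at chr4:127047690-127049398 on the plus strand of GRCm38 held 3, 4.32, 4.84, 4.26 and 4.11% of the gene's reads in water pools and 5.17 to 5.76% in ethanol pools. Its log2 difference from the rest of the gene was 0.28 (Simes adjusted p = 0.54), 0.33 without P9, where it was the 1 gene to pass (adjusted p = 0.037), and 0.21 without P2 (adjusted p = 1), where its Simes p was above 0.01. In Atp5g1, a subunit of the mitochondrial ATP synthase, the bin at chr11:96068867-96072986 on the minus strand held 2.51 to 3.26% of reads in water and 3.68 to 5.14% in ethanol pools, from 102 to 140 and 139 to 181 reads per pool. Its log2 difference was 0.36, with 0.39 both without P9 and without P2.

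In Evl, an actin regulator, the 86-base bin at chr12:108683262-108683347 on the plus strand held 0.453 to 0.813% of the gene's reads in water and 0.247 to 0.486% in ethanol pools, from 39 to 77 and 20 to 42 reads per pool. Its groups overlapped, since P9 was the lowest water pool and P1 lay above it. In Kcnk9, a potassium leak channel with 2 tested bins, the bin at chr15:72545997-72546340 on the minus strand held 2.86 to 3.86% of reads in water and 1.81 to 2.76% in ethanol pools. The log2 difference was -0.61 in Evl, -0.69 without P9 and -0.56 without P2, and -0.34 in Kcnk9, -0.36 without P9 and -0.31 without P2. Adjusted Simes p-values for Atp5g1, Evl and Kcnk9 were 0.54, 0.64 and 0.91 in all pools. The F-test over bins called each of the genes named, at adjusted p-values of 7.0e-05 for Sfpq, 0.015 for Atp5g1, 0.041 for Evl and 0.028 for Kcnk9.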

How the data were processed

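Raw read counts per gene and per exon bin of polyA-selected, strand-specific libraries were used. The authors deposited both as counts that had not been normalized. The header of the gene table names featureCounts 2.0.2 on the exons of Ensembl release 99 of GRCm38, with reversed strand and reads, not read pairs, counted. The submitters' processing notes also name FastQC and STAR 2.7.8a. The reference is from another mouse strain than DBA/2J, so reads over strain differences may be lost. Of 55385 genes, 55144 matched a symbol, and 7.96 to 9.35% of the reads of the exon files named no exon and were left out.

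The pools of one group are separate pools of mice. Genes were filtered by filterByExpr (minimum count 10), normalized by TMM and tested with edgeR 4.0.16 in R 4.3.3 (glmQLFit and glmQLFTest). Exon bins that reached 10 counts in 5 or more pools were tested with diffSpliceDGE. CPM values use TMM library sizes, errors are SE from the fit, and p-values were adjusted by Benjamini-Hochberg over all genes tested. Alternatives used DESeq2 1.42.0 and limma 3.58.1. Scripts were checked on simulated data. Pools of the same replicate number had correlations of -0.01 to 0.12 in their deviations from the group means. For water replicates 1 and 4 the best-matching ethanol pool had the same number, and for 2, 3 and 5 it had another. Whether the numbers mark a shared source is not known.

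The comparison, gene lists and naming rule were chosen with earlier results of these data known. Named are the 12 genes per direction with the smallest p among kept genes with a name, list members at p below 0.01 or with the smallest p, the 4 genes with the smallest exon p, 3 with the smallest interaction p, and genes that lose their call without P9 or P2. Some genes, including ones that this rule names, are not reported here.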

Additional observations from a re-analysis of the deposited data

Results flagged for a closer look

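Of 148 groups of pools examined over the genes and lists named, 16 held a pool far from the others, where chance flags about 1 in 20 groups. The genes named include some chosen because they turn on P9 or P2, so the number of these groups is not to be read against that share. The gap of the stray pool is given as a share of the group's range.

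P9 accounted for 9 of these. It was the high water pool for Rgs9 (0.916), Drd2 (0.931), Adora2a (0.939), Ccdc187 (0.917), Gpr101 (0.887) and the striatal list (0.883), and the low water pool for Fkbp2 (0.775), C4b (0.847) and Pdgfrb (0.739). P2 was the high water pool for Litaf (0.794) and Rassf10 (0.724).

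The other 5 were P12 as the high water pool for Aldh1a7 (0.958) and for the list of extracellular matrix and perineuronal nets (0.721), P6 as the high water pool for Tnfrsf25 (0.815), P11 as the high ethanol pool for Atp11b (0.689) and P19 as the high ethanol pool for Agt (0.736).

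Of 65 genes compared between the sexes, Drd2 had every female ethanol pool below the female water mean and every male ethanol pool above the male water mean. The female effect minus the male effect was -1.681 on the log2 scale (edgeR adjusted p = 1), which did not pass, and the female value rests on P9 as given in the report.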

How the results depend on the processing

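The 329 calls became 699 with no filter on low counts, and lay between 224 (without P19) and 432 (without P9) with each pool left out in turn. At the adjusted threshold the count of 0 became 11 with DESeq2, 49 with no filter, 2 with the striatal and myelin lists as covariates and 2 without P9 and P2 together, and it stayed at 0 in each other setting and with each pool left out. With the replicate number as a block, which is not known to mark a shared source, 388 genes were called, 224 of them among the 329, and 0 at the adjusted threshold. The 145 kept genes numbered within 1.5 times of that under DESeq2, RLE and the 1 CPM filter.

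For exon use, the 0 genes at the adjusted threshold became 101 with an F-test and 4 with limma's diffSplice, and lay between 0 and 1 with each pool left out, the 1 being without P9. The 48 genes at a Simes p below 0.01 became 28 with at least 50 counts per bin, 77 with at least 1 count and 149 with limma, and lay between 33 and 66 with each pool left out. The interaction count at the adjusted threshold was 0 in each setting.

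Signs turned for 2 of the genes named. Adora2a ranged from -1.562 to 0.0131 with 1 pool left out, the upper value being without P9, and was 0.0312 with the covariates. Aldh1a7 ranged from -2.023 to 0.0006, the upper value being without P12. Of 649 values for the 59 named genes called, with 1 pool left out each, 535 kept sign and call, 112 kept the sign and lost the call, and 2 turned. Among chaperones, Hspa5 and Sdf2l1 each lost the call in 7 of 11 such fits, Dnajb1 in 5 and Calr in 4, while Hsph1, Fabp7, Aqp4, Olig1, Itgb1, Bche and Cd74 did so in 0. The naming rule fixed part of these counts. Kept genes could not lose the call without P9 or without P2, and some other genes were named because they lose it there.

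Each group has 5 or 6 pools, and p-values rest on the spread between them. Genes at a low CPM, such as Fam131c, Gpr101 and H2-Eb1, also rest on few reads.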

Other observations

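The gene groups in this part were picked after their values were seen, so their counts are descriptions. Of 26 genes of the major histocompatibility complex whose symbol begins with H2, 4 fell, or 15.4%, against 1.14% of all genes tested, 0 rose, and the median log2 fold change was -0.11. H2-Eb1, a class II chain, was at 1.6, 1.76, 1.89, 2.28 and 1.72 CPM in the water pools P2, P6, P9, P12 and P16 and at 0.797 to 1.41 CPM in ethanol pools. The groups did not overlap, and its log2 fold change was -0.72 ± 0.21 (SE, adjusted p = 0.51). H2-Aa, another class II chain, fell by 0.64, H2-M3 by 0.56 and H2-K1, a class I gene, by 0.24 on the log2 scale. H2-M3 and H2-K1 were kept, and H2-Aa was not called without P9. H2-Aa was also called in the male pools, at -0.72 ± 0.22 (SE), while H2-K1 and H2-M3 were at -0.03 ± 0.07 and 0.15 ± 0.20 (SE) there. These genes are polymorphic between mouse strains and resemble each other, so their levels are uncertain, though all pools are of one strain.

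Several genes of brain vessels outside the vessel list fell and were kept. Eng, the endothelial TGF-beta co-receptor endoglin, was at 32.4, 37.4, 28.8, 39.5 and 36 CPM in water pools and at 26.1 to 32.1 CPM in ethanol pools, with a log2 fold change of -0.28 ± 0.07 (SE, adjusted p = 0.47) that was -0.34 without P9 and -0.24 ± 0.08 (SE) in males, where it was called too. Pdgfrb, the receptor of pericytes, fell by 0.25 on the log2 scale. Tek, the angiopoietin receptor TIE2, fell by 0.25 and Ocln, the tight junction protein occludin, by 0.30. Tek lost the call in 4 of the fits with 1 pool left out, among them those without P19, at -0.22, and without P12, at -0.17. P9 was the lowest water pool for Eng, Pdgfrb and Tek. Of 300 solute carrier genes, 10 fell, or 3.33%, against 1.14% of all genes tested, and 1 rose, and those that fell included Slc16a1, Slc22a8, Slco1c1 and Slco1a4.

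Of 70 genes whose symbol begins with Hsp or Dnaj, 4 rose, or 5.71%, against 0.639% of all genes tested, 1 fell, Hspg2, which encodes the matrix proteoglycan perlecan and no chaperone, and 20 were below 0. Of the 4, 3 are in the chaperone list and the other is Hspe1. Fkbp4, an HSP90 co-chaperone of steroid receptors, was at 55.8 to 60.3 CPM in water and 62.8 to 67.4 CPM in ethanol pools, without overlap, with a log2 fold change of 0.17 ± 0.05 (SE, adjusted p = 0.47). Creld2, a gene of the unfolded protein response, rose by 0.30, Stip1, the adaptor between HSP70 and HSP90, by 0.16 and Hspe1, the mitochondrial HSP10, by 0.18 on the log2 scale, and Stip1 and Hspe1 were not called without P2 or without P19. Stip1 and Hspe1 were also called in males, at 0.16 and 0.19. Of 118 ribosomal protein genes 1 was called, and of 98 respiratory complex genes 2 were, all higher, against 0.639% of all genes tested.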
